A study of Homo sapiens with 16 samples.

Results

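LOX and its 4 relatives LOXL1, LOXL2, LOXL3 and LOXL4 make up the lysyl oxidase family. The members were chosen as the probe sets of the array whose platform gene symbol is one of these 5 genes. That rule gave 11 of 54675 probe sets: 3 for LOX, 1 for LOXL1, 4 for LOXL2, 1 for LOXL3 and 2 for LOXL4. No probe set shared by several symbols includes a member. LOX led to the choice of this family because its signal was high in RKO cells treated with 5-aza-dC. Its values under each drug in RKO, and its difference between the lines, are therefore given as a description with no test. The question addressed here was whether that rise extends to the relatives.

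The data came from HCT116 and RKO, which are established human colon cancer cell lines. Each line received a DNA demethylating drug (5-aza-dC, 0.5 µM), a histone deacetylase inhibitor (TSA, 0.15 µM) and a poly(ADP-ribose) polymerase inhibitor (PJ-34), each alone, in every pair and all 3 together, beside an untreated control, and was collected after 3 days. HCT116 received PJ-34 at 3 µM, while for RKO the sources used here give both 2 µM and 3 µM. RNA of each condition was measured on 1 Affymetrix Human Genome U133 Plus 2.0 array, which gives 8 arrays per line and 16 in all. 5-Aza-dC is built into DNA and traps DNA methyltransferases, so that DNA methylation is lost as cells divide. TSA keeps histones acetylated, and PJ-34 blocks the enzymes that attach ADP-ribose chains to chromatin proteins. No condition was repeated, and each line is 1 cell population grown in culture, with no surrounding stroma. In cultured bulk samples, fewer cells with a transcript and less transcript per cell cannot be told apart.

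Lysyl oxidases are secreted amine oxidases that need copper and a cofactor formed from their own lysine and tyrosine residues. They oxidise lysines in collagen and elastin, and the aldehydes so formed join into the cross-links that make matrix fibres stiff and insoluble. LOX and LOXL1 are made as proenzymes with a propeptide that BMP1 and related proteases remove, and the released propeptide of LOX opposes RAS signalling. LOXL2, LOXL3 and LOXL4 carry scavenger receptor cysteine-rich domains in place of such a propeptide. LOX is known both as a gene silenced by promoter methylation in some cancers and as a gene induced by hypoxia in others. LOXL2 is best known for cross-linking collagen IV of basement membranes and for its link to epithelial-mesenchymal transition.

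The values are the signal intensities deposited for each probe set. The trimmed mean of every array was close to 1000, the median signal lay between 152 and 210, and 21.9% to 27.3% of probe sets read under 50. The markers of the lines were those of cultured epithelial cancer cells in part. EPCAM, an epithelial adhesion protein, had a median signal of 32646 in HCT116 and of 4053 in RKO, and the keratin KRT18 of 102628 and 15980. The keratin KRT19 and the cadherin CDH1, which define epithelium, had medians of 54281 and 7168 in HCT116 but of 7.46 and 11.4 in RKO. The keratin KRT8 had 24799 and 333. VIL1 and CDX2, also on the epithelial list, were dim in both lines, with medians of 187 and 117 in HCT116 and of 137 and 111 in RKO. In all, 5 of 7 epithelial markers had a median of at least 200 in HCT116 and 3 in RKO. Of 9 fibroblast markers, 4 reached 200 on some HCT116 array and 1 on some RKO array. Summed over the 9 genes, the fibroblast signal ran from 1429 to 4548 in HCT116 and from 531 to 1037 in RKO.

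The labels of 2 RKO arrays were in doubt. Cancer-testis genes are normally methylated and silent outside the germline and are known to respond to demethylation, so 19 of them were used to check the labels. In RKO their mean log2 signal was 7.35 on the 5-aza-dC array, 6.95 on the 5-aza-dC/TSA array and 7.39 on the array of all 3 drugs. It was 6.03 on the control array, 5.91 on the TSA array and 5.89 on the PJ-34/TSA array. The array labelled PJ-34 had 8.29, above every array whose label names 5-aza-dC, and the array labelled PJ-34/5-aza-dC had 6.05, at the level of the control. Of the 19 genes, 13 reached a signal of 200 on the array labelled PJ-34 and 0 on the array labelled PJ-34/5-aza-dC. In HCT116 the 4 arrays labelled with 5-aza-dC had means of 8.64 to 10.2, and the other 4 had 7.36 to 7.65. Both RKO arrays are called by their labels throughout, were kept in their labelled groups, and the drug effects in RKO are given with all 8 arrays and with the 6 arrays left without them.

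Treatment with 5-aza-dC leads to loss of methylation at CpG dinucleotides. The stretch before the start of LOX is therefore shown here beside that of LOXL1, which like LOX is made with a propeptide. LOXL4 is also shown, as it held the most CG dinucleotides of the 4 windows read (no window of LOXL2 was read). The sequences are RefSeq, build GRCh38.p14, and give the 250 bases before a gene's start, with each CG in capitals. Where RefSeq's promoter table lists several starts, the most upstream of them was used. For LOX, LOXL1 and LOXL4 it is the end of the gene's span, while the LOXL3 start, at 74553942 on chromosome 2, lies inside a span that reaches 74555702 on the minus strand. LOX lies on the minus strand of chromosome 5, and its window is chr5:122078260-122078509. LOXL1 lies on the plus strand of chromosome 15, with the window chr15:73926212-73926461. LOXL4 lies on the minus strand of chromosome 10, with the window chr10:98268195-98268444.
LOX: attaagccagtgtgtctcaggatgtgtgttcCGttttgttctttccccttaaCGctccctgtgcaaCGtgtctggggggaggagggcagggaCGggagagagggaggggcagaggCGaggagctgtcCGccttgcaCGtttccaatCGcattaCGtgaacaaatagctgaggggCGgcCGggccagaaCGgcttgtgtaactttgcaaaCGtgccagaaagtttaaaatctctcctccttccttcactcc
LOXL1: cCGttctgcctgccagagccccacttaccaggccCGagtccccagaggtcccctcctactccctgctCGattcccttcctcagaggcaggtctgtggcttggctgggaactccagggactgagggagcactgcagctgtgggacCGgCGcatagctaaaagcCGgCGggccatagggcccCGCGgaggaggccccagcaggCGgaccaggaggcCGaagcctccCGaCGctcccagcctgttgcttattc
LOXL4: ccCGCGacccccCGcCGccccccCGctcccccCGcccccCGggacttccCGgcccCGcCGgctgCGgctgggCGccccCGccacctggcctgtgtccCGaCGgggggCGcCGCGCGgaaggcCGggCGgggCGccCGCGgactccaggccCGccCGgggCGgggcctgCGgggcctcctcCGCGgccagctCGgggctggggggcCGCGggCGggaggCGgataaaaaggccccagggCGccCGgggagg
The LOX window held 13 CG dinucleotides, the LOXL1 window 13, the LOXL3 window 12 and the LOXL4 window 37. The letters CG were searched, which read the same on both strands, and 96.9% of 15843 protein-coding genes had at least 1 in a window of that kind. The median over those genes was 17. Of all these windows 61.8% had as many as LOX or more, and 5.06% had as many as LOXL4 or more. The G and C content was 55.2% for LOX, 66.8% for LOXL1, 64.4% for LOXL3 and 86.4% for LOXL4, against a median of 62.0%. DNA methylation of these sites was not measured on the arrays.

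**Figure D1:**
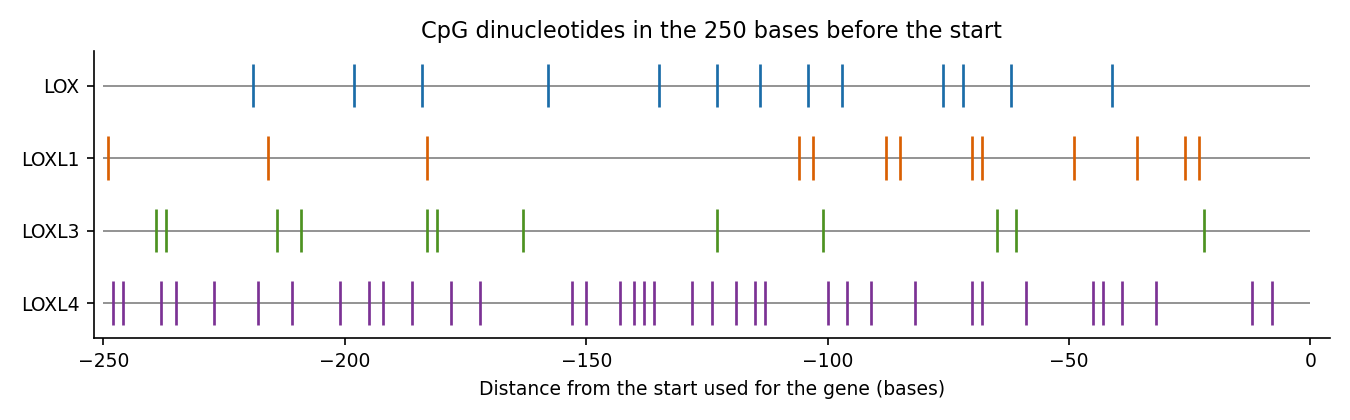
Positions of CG dinucleotides in the 250 bases before the start used for LOX, LOXL1, LOXL3 and LOXL4, as distance from that start in bases; the LOXL3 start lies inside the gene's span. Each vertical mark is 1 dinucleotide; LOX and LOXL1 had 13 each, LOXL3 had 12, and LOXL4 had 37.

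LOX was bright on 4 of the 8 RKO arrays and dim on the other 4. On its brightest probe set, 204298_s_at, the signal was 197 on the control array, 3837 on the 5-aza-dC array, 3120 on the 5-aza-dC/TSA array and 3254 on the array of all 3 drugs. It was 5981 on the array labelled PJ-34 and 95.6 on the array labelled PJ-34/5-aza-dC. The TSA array had 7.62 and the PJ-34/TSA array had 66.2. The 3 undisputed arrays with 5-aza-dC thus lay together far above the 3 undisputed arrays without it, and the array labelled PJ-34 was the brightest of all.

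The other 2 LOX probe sets had the same split. The probe set 213640_s_at had 34.3 on the control array, 743 with 5-aza-dC, 571 with 5-aza-dC/TSA and 318 with all 3 drugs. It had 1333 on the array labelled PJ-34, 39.7 on the array labelled PJ-34/5-aza-dC, 17.1 with TSA and 50.2 with PJ-34/TSA. The probe set 215446_s_at had 117 on the control array, 1126 with 5-aza-dC, 681 with 5-aza-dC/TSA and 725 with all 3 drugs. It had 1592 on the array labelled PJ-34, 82.7 on the array labelled PJ-34/5-aza-dC, 177 with TSA and 55.7 with PJ-34/TSA. On each of the 3 probe sets, the same 4 arrays were the bright ones.

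Against the RKO control, the 5-aza-dC array was 19.5-fold higher on 204298_s_at, 21.7-fold higher on 213640_s_at and 9.63-fold higher on 215446_s_at. All 3 LOX probe sets passed 5-fold on this array, on the array labelled PJ-34, on the 5-aza-dC/TSA array and on the array of all 3 drugs. Over all 54613 probe sets that are not array controls, the share at least 5-fold higher than the control was 0.537%, 0.434%, 0.428% and 1.09% on these 4 arrays. The rule used for a reactivated gene asks for a control signal under 50 and a rise of at least 5-fold to at least 50. Only 213640_s_at of the LOX probe sets had an RKO control signal under 50, and it met that rule on the same 4 arrays, as did 5.61%, 5.26%, 5.19% and 7.29% of all probe sets. These shares are a background to the description, since LOX was chosen on this contrast.

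The 5-aza-dC effect on LOX in RKO, as the mean log2 difference between arrays with and without the drug on 204298_s_at, was 2.47 over all 8 arrays by label. It was 5.29 over the 6 arrays without the array labelled PJ-34 and the array labelled PJ-34/5-aza-dC. The corresponding values were 1.16 and 2.97 on 215446_s_at. On 213640_s_at the value was 1.33 over 8 arrays, and the probe set was too dim to be kept over 6. For this and all later log2 differences, signals under 50 were set to 50, so that low signals understate a difference.

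**Figure D2:**
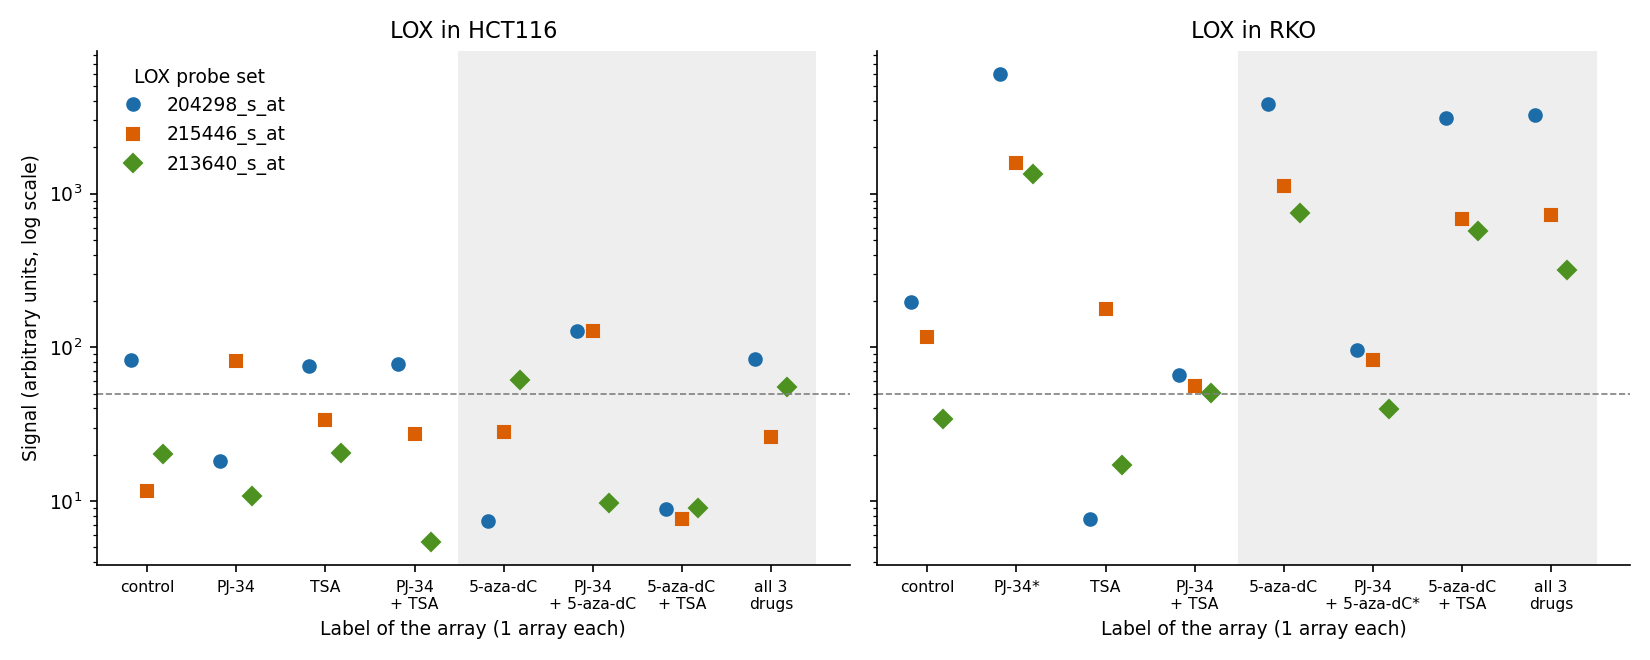
Signal of the 3 LOX probe sets on each array of HCT116 (left) and RKO (right), on a log scale in arbitrary units, with 1 array per label. The grey area holds the arrays whose label names 5-aza-dC, the dashed line is a signal of 50, and asterisks mark the 2 RKO arrays whose labels are in doubt; in RKO the signal of 204298_s_at was 3120 to 5981 on 4 arrays and 7.62 to 197 on the other 4.

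In HCT116, LOX stayed dim under every treatment. The probe set 204298_s_at read 82.7 on the control array, 18.1 with PJ-34, 7.44 with 5-aza-dC, 75.6 with TSA, 127 with PJ-34/5-aza-dC, 78.1 with PJ-34/TSA, 8.85 with 5-aza-dC/TSA and 83.5 with all 3 drugs. The highest LOX signal of any of the 3 probe sets in this line was 128. None of them reached 100 on at least 4 HCT116 arrays, so LOX was not tested there. LOX therefore had a mean log2 signal 3.05 lower in HCT116 than in RKO over the 16 arrays, and 3.16 lower without the 2 doubtful arrays, values that rest on the RKO arrays where it was bright.

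**Figure D3:**
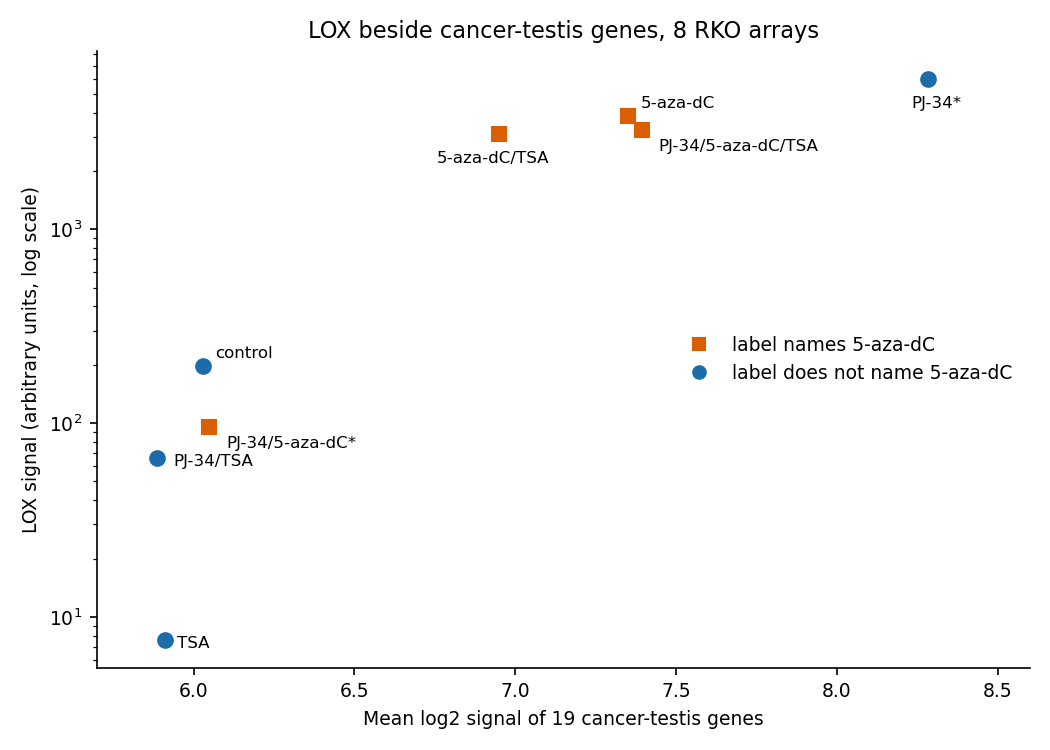
LOX signal of probe set 204298_s_at on a log scale against the mean log2 signal of 19 cancer-testis genes, for the 8 RKO arrays. Squares are arrays whose label names 5-aza-dC, circles are the others, and asterisks mark the 2 labels in doubt; the array labelled PJ-34 lies highest on both axes (8.29 and 5981), and the array labelled PJ-34/5-aza-dC lies beside the control.

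The rise seen for LOX in RKO was not detected in its relatives. LOXL1, which is needed to keep elastic fibres in repair, read 179 on the RKO control array, 268 with 5-aza-dC, 378 with 5-aza-dC/TSA and 332 with all 3 drugs. It read 139 with TSA and 303 with PJ-34/TSA, 545 on the array labelled PJ-34 and 244 on the array labelled PJ-34/5-aza-dC. The arrays with and without 5-aza-dC overlapped, and the brightest LOXL1 array in RKO was the one labelled PJ-34, as for LOX. The 5-aza-dC effect on LOXL1 in RKO was a log2 difference of 0.25 (SE 0.37, 95% interval −0.56 to 1.05, limma adjusted p = 0.928) with 8 arrays. With 6 arrays it was 0.72 (SE 0.37, interval −0.079 to 1.51, adjusted p = 0.387).

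LOXL3, an oxidase with a role in craniofacial development, read 429 on the RKO control array, 382 with 5-aza-dC, 356 with TSA, 362 with PJ-34/TSA, 596 with 5-aza-dC/TSA and 404 with all 3 drugs. It read 461 on the array labelled PJ-34 and 367 on the array labelled PJ-34/5-aza-dC. These arrays overlapped whichever drug they were split by. The log2 difference with 5-aza-dC was 0.10 (SE 0.24, interval −0.42 to 0.62, limma adjusted p = 0.958), and 0.24 with 6 arrays (SE 0.27, adjusted p = 0.728).

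LOXL4 had lower values with 5-aza-dC in RKO. The RKO control array read 273, the TSA array 212 and the PJ-34/TSA array 263, while the 5-aza-dC array read 164, the 5-aza-dC/TSA array 114 and the array of all 3 drugs 191. The array labelled PJ-34 read 179 and the array labelled PJ-34/5-aza-dC read 163. Among the 6 undisputed arrays, those with 5-aza-dC lay below those without, as did 7.67% of the 31057 probe sets tested there. The log2 difference was −0.56 (SE 0.34, interval −1.30 to 0.19, limma adjusted p = 0.882), lower in 4 of 4 pairs of arrays that differ by label in 5-aza-dC alone. These pairs include the array labelled PJ-34 with the array labelled PJ-34/5-aza-dC, whose labels are both in doubt. The log2 difference was −0.70 with 6 arrays (SE 0.40, adjusted p = 0.445), so the fall did not pass the test either way.

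LOXL2 was at background in RKO. Its brightest probe set, 202998_s_at, lay between 10.1 and 86.0 on the 8 arrays, and 202997_s_at between 11.02 and 37.2. The probe set 202999_s_at read 11.4 to 86.1 on 7 arrays and 212 with all 3 drugs, and 228808_s_at read 25.5 to 155. None was bright enough to be tested. In RKO, 0 of the 3 relatives with a tested probe set passed the test with 5-aza-dC, where 0.0% of 33862 probe sets were called over 8 arrays and 1.96% of 31057 over 6 (1.11% higher and 0.853% lower). With an unadjusted p under 0.05, 1759 and 4756 probe sets passed, and none of the 3 relatives was among them. Neither this nor the intervals shows that the relatives were unaffected: the interval of LOXL1 with 6 arrays reaches 1.51.

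**Figure D4:**
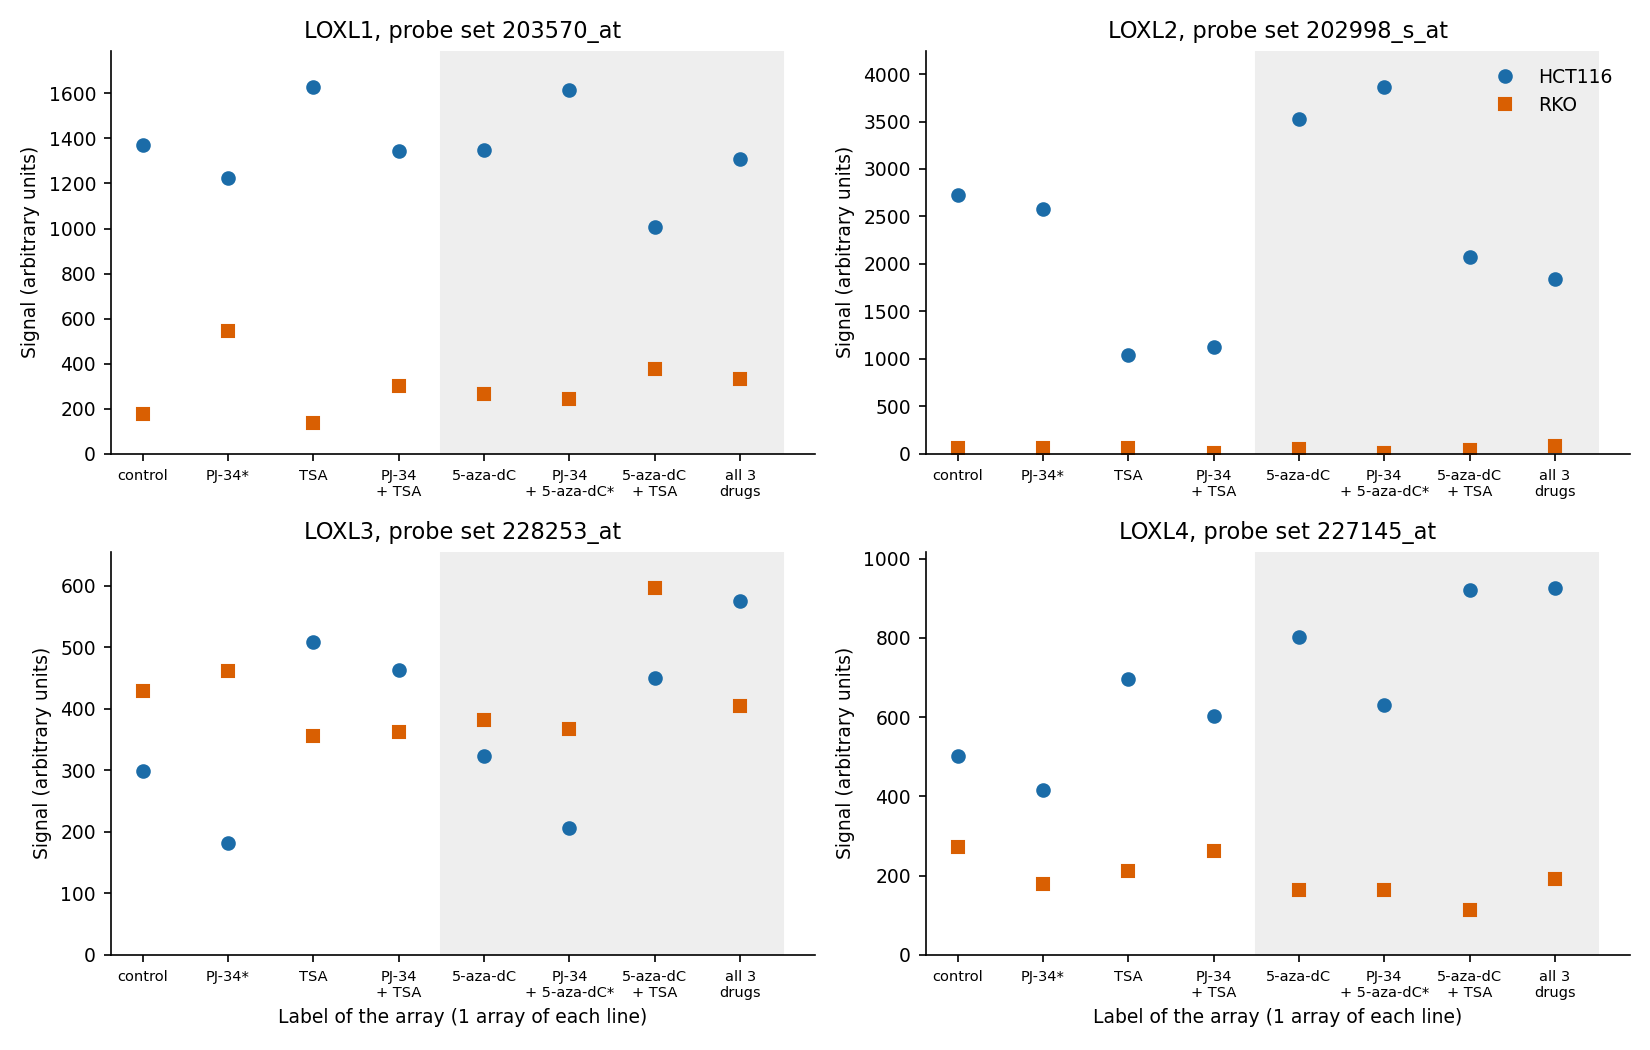
Signal (arbitrary units, linear scale from 0) of the brightest probe set of LOXL1, LOXL2, LOXL3 and LOXL4 on each array, with circles for HCT116 and squares for RKO. The grey area holds the arrays whose label names 5-aza-dC, and asterisks mark the labels in doubt, which are those of RKO only; LOXL2 lies at 1037 to 3859 in HCT116 and at 10.1 to 86.0 in RKO.

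In HCT116 the member that changed with 5-aza-dC was LOXL2. Its probe set 202998_s_at read 2725 on the control array and 2575 with PJ-34, against 3525 with 5-aza-dC and 3859 with PJ-34/5-aza-dC. On arrays with TSA it read 1037 and, with PJ-34, 1130, against 2078 with 5-aza-dC/TSA and 1844 with all 3 drugs. Each array with 5-aza-dC was thus above its partner without it. LOXL2 rose by 0.67 (SE 0.14, interval 0.37 to 0.96) on the log2 scale with a limma adjusted p of 0.0388, and 0.673% of 35373 probe sets were called higher in this comparison, 0.0707% lower and 0.744% in all. The other tested LOXL2 probe set, 202997_s_at, had a difference of 0.96 (SE 0.51, adjusted p = 0.536) at signals of 28.2 to 275. The call of LOXL2 rested on the setting: without a filter on signal the adjusted p was 0.285 (range over 8 other settings 0.0336 to 0.334, past in 4), and it ended in 7 of 8 fits that left out 1 array, the exception being the fit without the TSA array.

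LOXL4 also had higher values with 5-aza-dC in HCT116. The arrays without 5-aza-dC read 502 (control), 416 (PJ-34), 697 (TSA) and 602 (PJ-34/TSA). The arrays with it read 801 alone, 630 with PJ-34, 919 with TSA and 925 with both. All 4 pairs moved up, by a mean of 0.57 (SE 0.19, interval 0.16 to 0.99), but this did not pass the test in limma (unadjusted p = 0.0102, adjusted p = 0.272).

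LOXL1 and LOXL3 had small differences with 5-aza-dC in HCT116. The log2 difference was −0.087 (SE 0.18, limma adjusted p = 0.903) for LOXL1, which read 1008 to 1626 on all 8 arrays. It was 0.11 (SE 0.28, adjusted p = 0.927) for LOXL3. In all, 1 of 5 tested probe sets of members was called with 5-aza-dC in HCT116.

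With TSA 2 members were called in HCT116, in opposite directions. LOXL2 fell by 1.102 (SE 0.14, interval −1.40 to −0.81) on the log2 scale, with a limma adjusted p of 6.06e-04. The 4 arrays with TSA lay at 1037 to 2078 and the 4 without at 2575 to 3859, with no overlap and a fall in 4 of 4 pairs. The call held in each of 8 fits that left out 1 array, and ended when variances were moderated without a trend on signal (adjusted p = 0.0900, range over 8 other settings 4.81e-04 to 0.0900). The fall stood beside the rise with 5-aza-dC: the 2 arrays with both 5-aza-dC and TSA read between the arrays with TSA and no 5-aza-dC and the control. The other tested LOXL2 probe set, 202997_s_at, was lower with TSA in 4 of 4 pairs but was not called. Its arrays overlapped, at 28.2 to 137 with TSA and 53.0 to 275 without.

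LOXL3 rose with TSA in HCT116. The arrays with TSA read 508 alone, 462 with PJ-34, 451 with 5-aza-dC and 576 with both. The arrays without TSA read 299 (control), 182 (PJ-34), 323 (5-aza-dC) and 206 (PJ-34/5-aza-dC). These groups did not overlap. The log2 difference was 1.02 (SE 0.28, interval 0.41 to 1.62, limma adjusted p = 0.0371), higher in 4 of 4 pairs. The call ended without a filter on signal (adjusted p = 0.127), without the trend (0.118) and in 6 of 8 fits that left out 1 array, while the difference was 0.87 to 1.19 over the 8 fits. The adjusted p ranged from 0.0144 to 0.127 over 8 other settings.

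In this comparison 4.16% of probe sets were called higher and 4.83% lower, 8.99% in all, and the groups did not overlap for 6.26% and 6.95%. LOXL4 had 0.44 with TSA (SE 0.19, limma adjusted p = 0.180), higher in 4 of 4 pairs, and LOXL1 had −0.085 (SE 0.18, adjusted p = 0.824). In RKO none of LOXL1, LOXL3 and LOXL4 passed with TSA. Over 8 arrays 0.00591% of all probe sets were called (0.00295% higher and 0.00295% lower). Over 6 arrays 0.0161% were called (0.0129% higher and 0.00322% lower). LOX itself had −0.92 (SE 1.40, limma adjusted p = 0.841) with TSA over 8 RKO arrays and −1.14 (SE 0.36, unadjusted p = 0.00694, adjusted p = 0.386) over 6. On the other LOX probe set kept over those 6 arrays, 215446_s_at, the difference with TSA was −0.066 (SE 0.45). LOXL1, LOXL3 and LOXL4 had −0.068, 0.041 and −0.026 over 8 arrays. Over 6 arrays they had 0.067 (SE 0.45), 0.19 (SE 0.33) and −0.44 (SE 0.49), and none passed.

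PJ-34 called no probe set in either line at an adjusted p under 0.05 in limma (0.0%), with 1323 in HCT116 and 895 in RKO at an unadjusted p under 0.05. In HCT116 the log2 differences were 0.050 for LOXL1, −2.12e-05 for LOXL2 (SE 0.14), −0.29 for LOXL3 and −0.20 for LOXL4. In RKO they were 0.015 for LOX (SE 1.40), 0.60 for LOXL1 (SE 0.37), −0.12 for LOXL3 and 0.11 for LOXL4 by label. For LOX with PJ-34 the interval was −3.03 to 3.06 over 8 arrays, with both doubtful arrays in the PJ-34 group. For LOX the intervals describe the spread and are no test. Without them it was 0.23 (SE 0.36, interval −0.54 to 1.00), from the array of all 3 drugs and the PJ-34/TSA array against 4 others. In the same comparison, from the fit of 6 arrays, LOXL1 had 0.47 (SE 0.45), LOXL3 −0.27 (SE 0.33) and LOXL4 0.52 (SE 0.49).

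**Figure D5:**
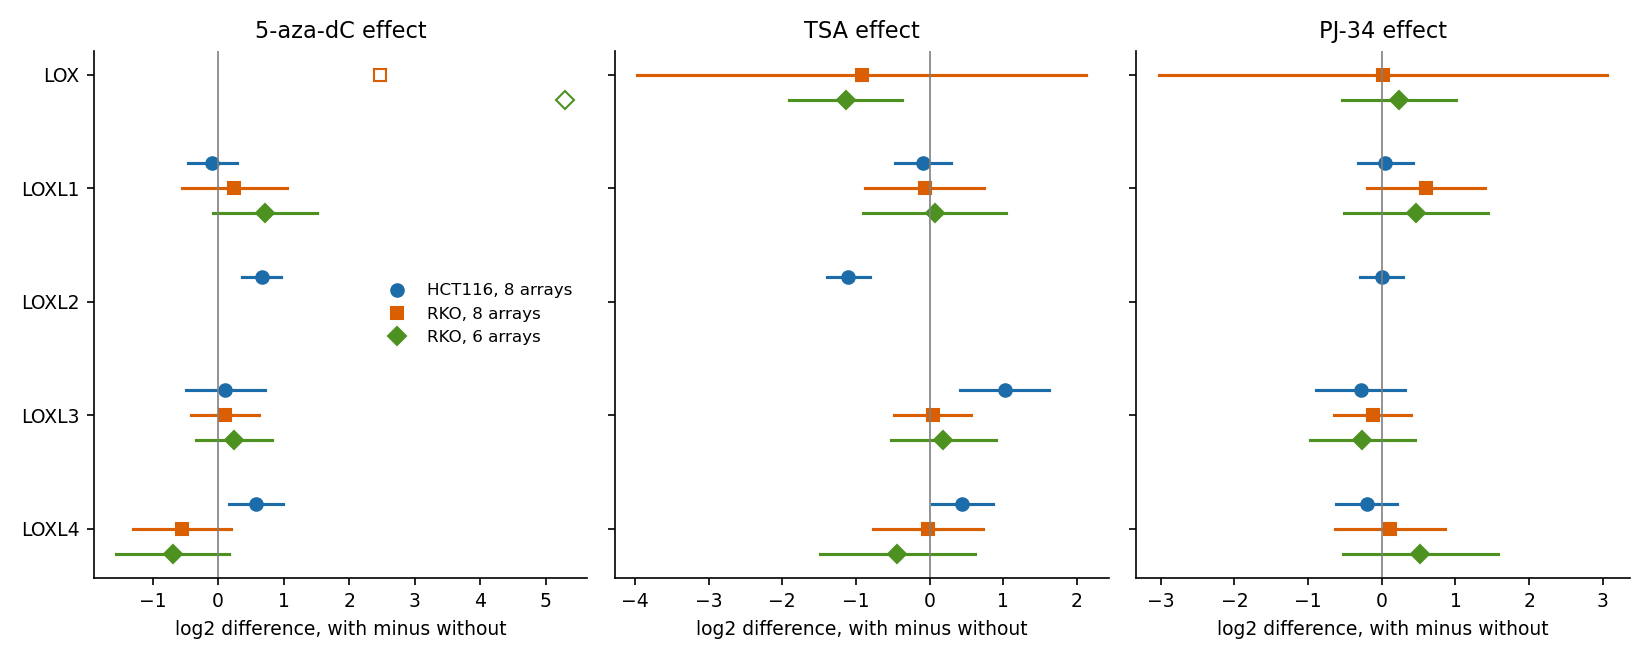
Drug effects on the brightest probe set of each member, as the log2 difference between arrays with and without the drug, with 95% intervals of the limma fit as lines. Circles are HCT116 (8 arrays), squares RKO (8 arrays by label) and diamonds RKO without the 2 doubtful arrays. The open points of LOX under 5-aza-dC (2.47 and 5.29) carry no interval because LOX was chosen on that contrast. The intervals of LOX under TSA and PJ-34 describe the spread and are no test. A missing point means that the probe set was too dim to be tested.

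Whether a drug acted differently on a member in the 2 lines was tested as the difference between the effects. The 5-aza-dC effect on LOXL4 was 1.13 higher in HCT116 than in RKO (SE 0.37, unadjusted p = 0.00667), which did not pass the adjustment (limma adjusted p = 0.511, or 0.270 without the 2 doubtful arrays), where 0.0309% of 42119 probe sets were called, or 0.165% of 41191 without those arrays (0.0631% higher and 0.102% lower). The TSA effect on LOXL3 was 0.98 higher in HCT116 (SE 0.37, limma adjusted p = 0.277, or 0.618 without the doubtful arrays), with 0.401% called over all probe sets (0.157% higher and 0.245% lower), or 0.136% without the doubtful arrays (0.0316% higher and 0.104% lower). The change of LOXL3 in HCT116 is thus not shown to be particular to that line. For LOXL2 no difference between the lines is given, since its RKO signals lay near the floor of 50, where a fall could not be seen. None of the 6 probe sets of relatives passed for an interaction of 5-aza-dC and TSA over both lines, where 0.0% were called and 1887 probe sets had an unadjusted p under 0.05. Without the doubtful arrays 0.00971% were called, again with no relative among them.

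The lines differed in the levels of the relatives themselves. LOXL1 ran from 1008 through a median of 1347 to 1626 in HCT116, and in RKO from 139 to 545. LOXL4 ran from 416 through a median of 663 to 925 in HCT116, and from 114 to 273 in RKO. LOXL1 was 2.28 higher in HCT116 on the log2 scale (SE 0.21, limma adjusted p = 4.03e-08), and LOXL4 was 1.82 higher (SE 0.18, adjusted p = 1.38e-07). LOXL2 was 5.19 higher on 202998_s_at and 1.20 higher on 202997_s_at, given as a description with no test, since these probe sets passed the filter on signal through the HCT116 arrays alone and so had to differ. A further LOXL2 probe set, 228808_s_at, had 0.38 (SE 0.31, limma adjusted p = 0.359). LOXL3 had a similar level in both lines, at 182 to 576 in HCT116 and 356 to 596 in RKO, with a difference of −0.25 (SE 0.19, interval −0.64 to 0.15, adjusted p = 0.319). In this comparison 21.3% of 42119 probe sets were called higher in HCT116 and 23.0% lower, 44.3% in all. Without the 2 doubtful arrays the shares were 18.9% higher and 19.8% lower, 38.7% in all. The calls of LOXL1 and LOXL4 held without them.

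The probe sets of a gene did not all follow each other. For LOX, the correlation of log2 signals with 204298_s_at over the 8 RKO arrays was 0.96 for 213640_s_at and 0.94 for 215446_s_at, a description of arrays that share their RNA. For LOXL2 the signals of 228808_s_at and 202999_s_at were at most 159 and 212 on any array, and for LOXL4 the second probe set, 1570219_at, read 9.96 to 176. On that dim probe set the rule for a reactivated gene was met by the RKO arrays with 5-aza-dC (78.1), TSA (176), 5-aza-dC/TSA (56.7) and the array labelled PJ-34/5-aza-dC (50.5), from a control signal of 9.96. Over all probe sets 4.75% met it on the TSA array and 4.55% on the array labelled PJ-34/5-aza-dC. The bright LOXL4 probe set, 227145_at, had lower values than the control on each of these arrays. The dim LOXL2 probe set 202999_s_at met the rule in RKO with PJ-34/TSA (86.1) and with all 3 drugs (212), from a control of 15.2, as did 4.41% and 7.29% of all probe sets. In HCT116 the LOX probe set 215446_s_at met it with PJ-34 (81.9) and PJ-34/5-aza-dC (128), from a control of 11.6, as did 5.13% and 4.75%. The sequences of the probes were not used here, so it was not checked which part of each transcript they read. In RefSeq the span of LOX overlaps SRFBP1, that of LOXL1 overlaps LOXL1-AS1, that of LOXL2 overlaps LOXL2-AS1, and that of LOXL3 overlaps DOK1 and HTRA2.

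The substrates and partners of the family gave a further reading of the pathway. Of 10 tested collagen genes in HCT116, 2 rose with 5-aza-dC, which were COL6A3 by 3.07 (SE 0.28, limma adjusted p = 4.71e-05) and COL6A1 by 0.72 (SE 0.13), both chains of the microfibrillar collagen VI. Over all probe sets 0.673% were called higher. The median log2 difference of the 10 was 0.33, against −0.014 over all probe sets tested. With TSA, 3 collagen genes fell and 1 rose, where 4.83% of all probe sets fell and 4.16% rose. COL1A1, a chain of fibrillar collagen I, fell by 1.37 (SE 0.22, limma adjusted p = 0.00249), COL6A1 fell by 0.78, and COL12A1 rose by 0.69. COL6A1 thus moved as LOXL2 did, up with 5-aza-dC and down with TSA.

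Few other partners were called with a drug. With TSA in HCT116, where 8.99% of all probe sets were called, 1 of 12 elastic fibre genes fell, which was EFEMP2 by 1.48 (SE 0.38, limma adjusted p = 0.0271), a fibulin that brings LOX to elastin. Of 9 copper genes, the copper chaperone ATOX1 rose by 0.79 (SE 0.16, adjusted p = 0.00817). Of 15 regulators, HRAS rose by 0.96 (SE 0.15, adjusted p = 0.00261) and the hypoxia factor EPAS1 fell by 0.53 (SE 0.11, adjusted p = 0.0107). None of 5 maturation proteases or 13 collagen-modifying genes passed with a drug in HCT116. In RKO no gene of these 6 lists passed with any drug, over 8 arrays or 6. Few probe sets of any kind were called there with TSA or PJ-34, or with 5-aza-dC over 8 arrays. Over 8 arrays the shares were 0.0% with 5-aza-dC, 0.00591% with TSA and 0.0% with PJ-34. Over 6 arrays they were 1.96%, 0.0161% and 0.0%.

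For the same lists, the counts called between the lines stand beside the shares of 21.3% and 23.0% over all probe sets. They are given as a description with no test. A gene bright in 1 line alone passed the filter on signal through that line and so had to differ. Of 13 collagen genes, 10 passed that filter in HCT116 and 4 in RKO, and COL1A1 read at most 83.5 in RKO. Of 12 collagen genes, 8 were higher in HCT116 and 0 lower, with COL12A1 higher by 5.20 and COL1A1 by 4.69. Of 15 elastic fibre genes, 7 were higher and 2 lower, with the microfibril gene MFAP2 higher by 5.69 and LTBP2 with a difference of −3.76. Of 6 maturation genes, 4 were higher and 1 lower, among them the enhancers of procollagen cleavage PCOLCE2 (3.47) and PCOLCE (−3.53). Of 13 collagen-modifying genes, 2 were higher and 9 lower, with the lysyl hydroxylase PLOD2 at 4.86 and the collagen chaperone SERPINH1 at −1.34. Of 10 copper genes, 1 was higher and 2 lower, and the copper importer SLC31A1 had −1.90. Of 15 regulators, 10 were higher and 3 lower, with ZEB1, a repressor of epithelial genes, at −6.09 and SMAD3, a carrier of TGF-beta signals, at 3.17. Without the 2 doubtful RKO arrays, 6 collagen genes were higher and 0 lower.

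The genes most like LOX in RKO, by the Pearson correlation of log2 signal with 204298_s_at over the 8 arrays, were ZNF274 (0.99), SYN1 (0.99), GCH1 (0.98), LY96 (0.98) and IFITM1 (0.98). They were picked as the highest of 26773 probe sets with a gene symbol and share the arrays with LOX, so the values are a description. LY96, the partner of the endotoxin receptor TLR4, read 93.6 to 2410 on the RKO arrays, and GCH1, which starts the synthesis of tetrahydrobiopterin, 4262 to 5977. Over all 16 arrays the genes most like each member were ZNF736 for LOX (0.96), C10orf88 for LOXL1 (0.98), SLC27A6 for LOXL2 (0.99), PCYT1A for LOXL3 (0.93) and NFYC for LOXL4 (0.96). For LOXL1, LOXL2 and LOXL4, these 16 points fall into the 2 lines, whose levels of the member do not overlap. Of the relatives, LOXL1 had a correlation with LOX of 0.73 over the 8 RKO arrays, LOXL3 of 0.60 and LOXL4 of −0.58.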

How the data were processed

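Gene expression was measured on 16 Affymetrix arrays, 8 of HCT116 and 8 of RKO, and arrays were grouped by their titles alone. For 54675 probe sets the authors deposited signal intensity on a linear scale, made with GCOS and brought to a trimmed mean near 1000 on each array. The GCOS version was not given in those sources. No detection calls were used. Members and gene lists were chosen with earlier results of these data known. Every probe set of the 5 members was named, up to 3 genes per list and comparison with the smallest p, and the genes most like a member.

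A floor of 50 was applied before log2 transformation. A probe set was kept where 4 or more arrays of a fit reached 100, and 62 array controls were left out, which gave 35373 in HCT116, 33862 in RKO (31057 without the 2 doubtful arrays) and 42119 for both lines. The model, made with limma 3.58.1 (R 4.3.3), held 1 term for every drug within a line, so that 4 arrays with a drug are compared with 4 without, and the residual takes in any interaction. P-values were adjusted by Benjamini and Hochberg over all probe sets of a comparison at 0.05, and measure only the spread between these arrays. The fits were tested on simulated data. Other floors, filters, normalizations, variance models and sets of arrays were tried. The brightest probe set stands for a gene in figures. Gene names came from the platform annotation, spans and sequences from RefSeq (GRCh38.p14). The number of arrays limits the precision.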

Additional observations from a re-analysis of the deposited data

Results flagged for a closer look

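Among the RKO arrays whose label names 5-aza-dC, the LOX signal of the one labelled PJ-34/5-aza-dC stood apart. Its signal was 95.6, against 3120 to 3837 on the other 3, and the gap was 0.944 of the range of the log2 signals of the 4. LOX was chosen on these values and the label of this array was already in doubt, so the gap is a description and no test. LOXL2 on the RKO array of all 3 drugs also stood apart from the other 3 RKO arrays with 5-aza-dC, with a gap of 1.0 of the range. That signal was 86.0, the other 3 were under 50 and were set to 50, and all 4 are at background. In all, 60 groups of 4 arrays of the 5 members were examined, of which chance marks about 1 in 20. No drug effect on LOXL1, LOXL3 or LOXL4 differed between the lines past the test. The 5-aza-dC effect on LOX was not tested for this, since LOX was chosen on it, and no difference is given for LOXL2.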

How the results depend on the processing

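No paired analysis was possible because each condition has 1 array, so that no replicate number links arrays across conditions. The pairs of arrays counted in the text differ by label in 1 drug alone and were not used as a block. With 5-aza-dC in HCT116, the count of members called was 1 and became 0 without a filter on signal, with median centring, without a trend on signal and with all 16 arrays in 1 fit, and was 0 to 1 in fits that left out 1 array. With TSA in HCT116 the count was 2 and became 1 without a filter and 0 without a trend, and was 1 to 2 in fits that left out 1 array. Without the trend the adjusted p of LOXL2 with TSA was 0.0900 (range over 8 settings 4.81e-04 to 0.0900). The cause was not tested. Some uncalled values changed sign. LOXL1 with TSA in HCT116 had −0.085 and became 0.0056 with quantile normalization and 0.077 with median centring. Median centring also turned LOXL2 with PJ-34 in HCT116 to 0.094, LOXL3 with 5-aza-dC in RKO to −0.067 and LOX with PJ-34 in RKO to −0.012, which a floor of 100 turned to −0.070. Without the 2 doubtful arrays LOXL1 with TSA in RKO became 0.067. Leaving out 1 array gave 3 to 4 members' probe sets called between the lines, a count that takes in the LOXL2 probe sets given with no test. LOXL1 and LOXL4 were called in each of these 16 fits. Over all 16 arrays 44.3% of probe sets were called in this comparison.

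Leaving out 1 array gave these ranges where a sign turned. In HCT116 they were −0.21 to 0.064 for LOXL1 and −0.042 to 0.28 for LOXL3 with 5-aza-dC, −0.24 to 0.066 for LOXL1 with TSA, and −0.10 to 0.20 for LOXL1 and −0.080 to 0.090 for LOXL2 with PJ-34. In RKO with 5-aza-dC they were −0.083 to 0.63 for LOXL1 and −0.095 to 0.24 for LOXL3. With TSA they were −3.09 to 1.13 for LOX, −0.40 to 0.32 for LOXL1, −0.16 to 0.18 for LOXL3 and −0.23 to 0.16 for LOXL4. With PJ-34 they were −2.04 to 2.18 for LOX, −0.27 to 0.074 for LOXL3 and −0.082 to 0.31 for LOXL4. The 5-aza-dC value of LOX in RKO kept its sign and ran from 1.55 to 4.64, the last without the array labelled PJ-34/5-aza-dC.

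The mean signal of HCT116 minus RKO depended on the probe set. For LOX it was −2010 on the brightest probe set, −526 on 215446_s_at and −364 on 213640_s_at. For LOXL2 it was 2298, and 116, 20.6 and −33.98 on the dim probe sets. For LOXL4 it was 492, and −21.1 on the dim 1570219_at. Signals near background limit what can be said of LOX in HCT116 and LOXL2 in RKO.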
